A study of Homo sapiens with 6 samples.

Results

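The DUSP and SPRY feedback inhibitors of ERK described here are 10 genes, DUSP1, DUSP4, DUSP5, DUSP6, DUSP10, DUSP14, DUSP16, SPRY2, SPRY4 and SPRED1. They were chosen by name among the 57905 genes of the deposited count matrix, and all 10 were among the 16565 genes that passed the low-count filter. The RNA came from HCT116, an epithelial line of human colorectal carcinoma with wild-type p53. The Nut 0h cells received only the drug vehicle DMSO, while the Nut 1h and Nut 10h cells received 10 µM Nutlin-3a for 1 h and 10 h. Nutlin-3a releases p53 from its inhibitor HDM2, the product of MDM2. Each group had 2 biological replicates, 6 libraries in all from a single line, and since the sources used here do not say whether the replicates were separate cultures, p-values measure only the spread between these libraries.

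ERK is the last kinase of the cascade that runs from growth factor receptors through RAS, RAF and MEK. Active ERK induces genes whose products switch the pathway off again, and the mRNAs of several of these inhibitors are short-lived, so that their levels are widely used as a readout of ERK activity in tumour cells. DUSP proteins are dual-specificity phosphatases that remove the activating phosphates of MAP kinases, and their members differ in location and in preference for ERK or for the stress kinases JNK and p38. Sprouty (SPRY) and SPRED proteins act further upstream, at the level of RAS and RAF.

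Promoter windows are shown first for 5 members that stand for the patterns described further on. DUSP1 was lower at Nut 1h, though not called with the GC-content offset given further on. DUSP6 and SPRY4 were higher at Nut 1h, and DUSP14 and DUSP16 were higher at Nut 10h. The windows were taken from RefSeq on GRCh38.p14 and run 5′ to 3′ on the strand of the gene, with 250 bases before and 50 bases after the annotated start. The table held a window for 8 of the 10 members, all but DUSP4 and DUSP5. Capitals mark matches to motifs searched on both strands.
DUSP1 (chr5:172771146-172771445, minus strand): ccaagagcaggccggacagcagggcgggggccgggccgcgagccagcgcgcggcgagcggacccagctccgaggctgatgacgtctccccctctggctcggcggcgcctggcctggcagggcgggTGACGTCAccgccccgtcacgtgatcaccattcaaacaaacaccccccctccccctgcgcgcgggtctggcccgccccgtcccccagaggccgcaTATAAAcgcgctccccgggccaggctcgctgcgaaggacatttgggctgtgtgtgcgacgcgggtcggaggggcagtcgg
DUSP6 (chr12:89352452-89352751, minus strand): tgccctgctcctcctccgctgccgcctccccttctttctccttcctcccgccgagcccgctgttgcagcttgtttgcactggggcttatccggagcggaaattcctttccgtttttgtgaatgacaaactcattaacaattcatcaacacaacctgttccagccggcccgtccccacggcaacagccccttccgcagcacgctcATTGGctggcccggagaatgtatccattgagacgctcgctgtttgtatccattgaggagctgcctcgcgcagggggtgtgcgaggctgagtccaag
SPRY4 (chr5:142324198-142324497, minus strand): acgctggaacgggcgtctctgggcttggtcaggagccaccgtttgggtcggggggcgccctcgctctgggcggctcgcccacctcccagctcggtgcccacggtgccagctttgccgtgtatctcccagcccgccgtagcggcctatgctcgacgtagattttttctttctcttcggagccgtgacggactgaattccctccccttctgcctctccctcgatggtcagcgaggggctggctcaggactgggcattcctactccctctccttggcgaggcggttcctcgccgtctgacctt
DUSP14 (chr17:37489641-37489940, plus strand): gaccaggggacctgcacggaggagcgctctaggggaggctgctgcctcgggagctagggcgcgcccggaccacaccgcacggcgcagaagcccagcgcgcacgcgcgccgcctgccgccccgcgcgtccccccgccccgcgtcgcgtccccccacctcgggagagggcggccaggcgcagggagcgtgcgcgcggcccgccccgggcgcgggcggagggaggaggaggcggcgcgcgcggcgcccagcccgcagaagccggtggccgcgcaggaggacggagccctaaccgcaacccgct
DUSP16 (chr12:12562814-12563113, minus strand): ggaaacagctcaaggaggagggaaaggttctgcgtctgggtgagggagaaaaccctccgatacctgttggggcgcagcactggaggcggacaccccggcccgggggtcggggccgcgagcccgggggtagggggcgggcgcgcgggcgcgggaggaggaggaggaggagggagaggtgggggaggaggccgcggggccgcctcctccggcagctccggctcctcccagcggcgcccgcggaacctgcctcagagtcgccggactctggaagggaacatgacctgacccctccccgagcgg

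The capitals in the DUSP1 window are the cAMP response element TGACGTCA, which holds the palindrome bound by CREB and ATF proteins, and the TATA box TATAAA. The cAMP response element was present in 1.85% of the 35116 promoter windows of the same length and the TATA box in 11.5%, and DUSP1 was the only one of the 8 members with a match to either. The capitals in the DUSP6 window are the CCAAT box CCAAT on the other strand, which 34.6% of all windows hold and which was also found for DUSP10. The AP-1 site TGANTCA (7.71% of all windows), the ETS site CCGGAAGT (4.14%), the Capicua sites TGAATGAA (1.65%) and TGAATGGA (1.03%) and the p53 half-site (6.63%) had no match in the windows of the 8 members. ETS factors and Capicua are the activators and the repressor through which ERK is known to control several of these genes. These matches describe the letters of the windows only, and the motifs do not overlap each other in the windows shown.

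The counts assigned to genes summed to between 26068076 and 35473485 per library, the lowest total being that of Nut 1h replicate 2. The mitochondrial share of the counts was between 8.15% and 8.44% at Nut 1h, against 4.99% to 6.18% at Nut 0h and 6.45% to 7.06% at Nut 10h, and its part in the results was not tested. Across the tested genes, the log2 fold change at Nut 1h fell with the GC content of the transcript (Pearson r = -0.69), and hardly varied with it at Nut 10h (r = -0.03), where the points are genes and not replicates. A GC content was known for 98.1% of the tested genes, and 5 of the 10 members lay below their median of 48.7%. For members, the Nut 1h value with a smooth GC-content offset per library is given too where that offset changed the call, the direction or the log2 fold change by over 1.5 times. The treatment was visible in p53 targets, as CDKN1A rose 14.3-fold at Nut 10h (adjusted p = 1.03e-10, edgeR quasi-likelihood test) and MDM2 rose 4.56-fold at Nut 1h (log2 fold change 2.19, or 1.51 with the offset) and 13.4-fold at Nut 10h. CDKN1A was at 0.05 on the log2 scale at Nut 1h, which was not called (adjusted p = 0.704), and at 0.70 with the offset (adjusted p = 2.56e-06). Of the epithelial markers, EPCAM had 7560 to 12539 counts and KRT8, KRT18, KRT19 and CDH1 were expressed, while VIL1 had at most 10 counts. The summed normalized counts of the epithelial markers were 192185 and 163206 at Nut 0h, 111553 and 121350 at Nut 1h, then 245787 and 205055 at Nut 10h, so that the groups did not overlap. KRT19 was at -0.98 at Nut 1h (-0.02 with the offset) and at 0.87 after 10 h, whereas EPCAM was at 0.46 (0.04 with the offset) and then at -0.32. Of 5 markers of blood, endothelial and fibroblast cells that matched by symbol (6 were listed), PTPRC, CD3E and COL3A1 had at most 2 counts in any library and VWF had 10 to 23, but COL1A1 had 621 to 1484. The summed normalized counts of these 5 genes, nearly all of them COL1A1, were 1357 and 1409 in the Nut 0h libraries, 821.7 and 796.6 in those of Nut 1h, and 1301 and 1180.0 in those of Nut 10h. The part of either marker list in the results below was not tested. In bulk RNA, fewer cells of a type and less RNA per cell cannot be told apart.

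After 1 h of Nutlin-3a the inhibitors split. DUSP5, DUSP6, SPRY4 and SPRED1 were higher than at Nut 0h, DUSP1 and DUSP4 were lower, and DUSP10, DUSP14, DUSP16 and SPRY2 did not pass the test. The 4 of 10 members called higher (40%) and 2 of 10 called lower (20%) stand beside 34.5% and 32.3% of all tested genes at an adjusted p of at most 0.05, so that at Nut 1h a call was common among all genes and the counts of members are not far from that background. With the GC-content offset the members called higher were DUSP5, DUSP6 and SPRY4 and those called lower were DUSP4, DUSP16 and SPRED1, against 20.5% of all genes higher and 24.8% lower. After 10 h, DUSP5, DUSP14 and DUSP16 were higher and no member was lower, beside 14.1% of all genes higher and 14.9% lower. DESeq2 and limma-voom, run on the same 6 libraries, also called no member lower at Nut 10h. They called 2193 of 13996 and 2470 of 16565 genes lower. The offset left the same 3 members higher and none lower at Nut 10h, against 17.0% and 22.4% of all genes. The median log2 fold change of the 10 members was 0.15 at both times, while the median over all tested genes was 0.05 at Nut 1h and 0.000174 at the later time. With the offset the members' median was -0.11 at Nut 1h and 0.10 after 10 h. Both comparisons share the Nut 0h libraries, the only vehicle group, so drug effect and time in culture cannot be told apart.

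**Figure D1:**
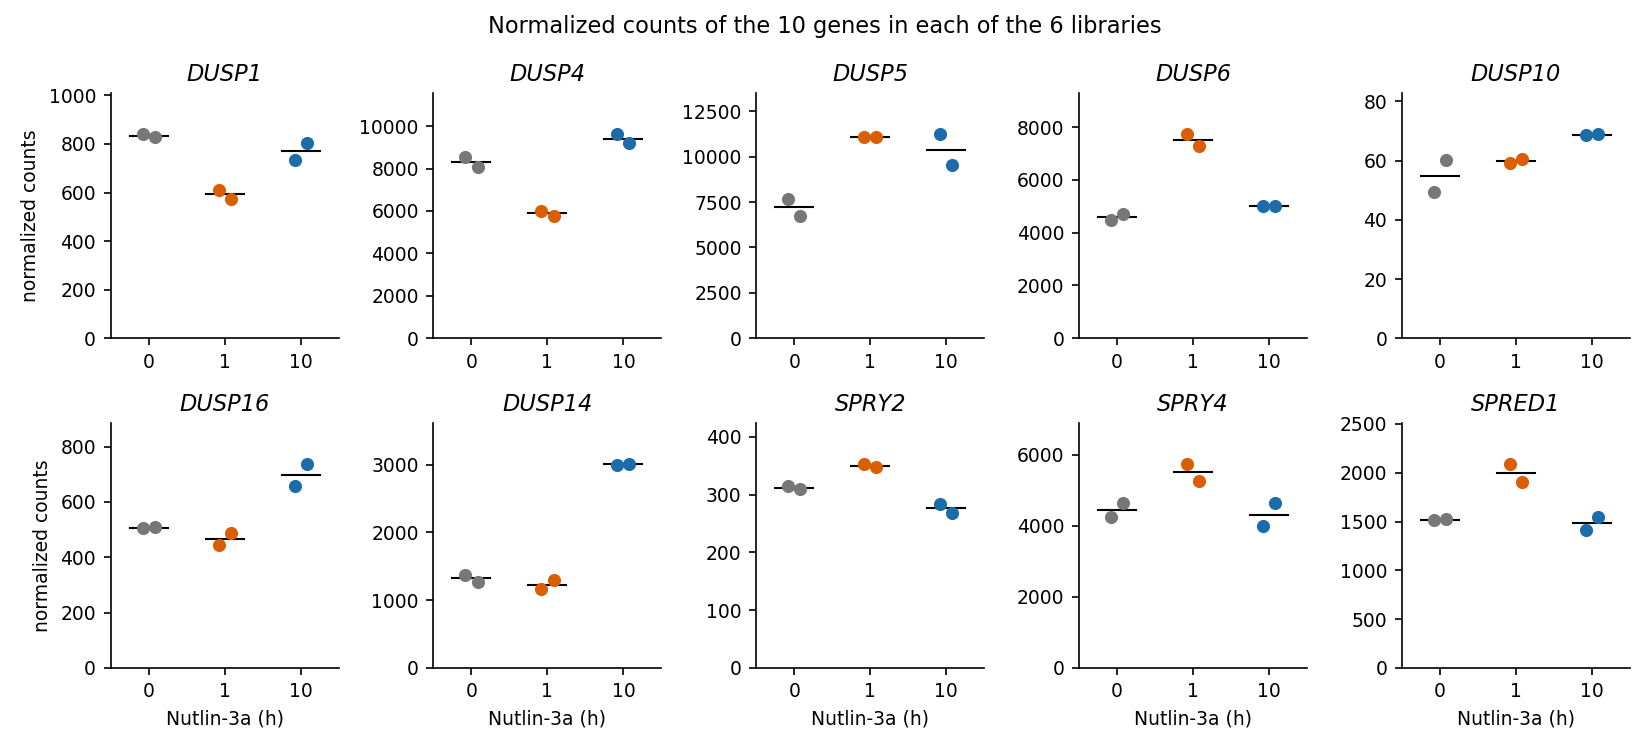
Normalized counts (vertical axes, from 0) of the 10 genes against hours of Nutlin-3a. Each point is 1 library and each bar the mean of 2. DUSP14 separates at Nut 10h, with a mean of 3006 against 1321 at Nut 0h. DUSP5, DUSP6, SPRY4, SPRED1 and also SPRY2, which was not called, have their 2 Nut 1h libraries above both Nut 0h libraries.

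Among the phosphatases that act in the nucleus, DUSP5 was the one that rose at both times. DUSP5 encodes an inducible nuclear phosphatase specific for ERK (chromosome 10, 112257665 to 112271291 of GRCh37, plus strand). Its normalized counts, which are counts scaled to a common library size, were 7677 and 6724 at Nut 0h, 11059 and 11095 at Nut 1h, then 11231 and 9516 at Nut 10h. All 4 treated libraries lay above both vehicle libraries, and the Nut 10h libraries spanned those of Nut 1h. The log2 fold change was 0.62 (SE 0.11, adjusted p = 0.000128, edgeR quasi-likelihood test with Benjamini-Hochberg adjustment over all tested genes, as throughout) at Nut 1h, a 1.54-fold rise. At Nut 10h it was 0.53 (SE 0.10, adjusted p = 0.00181), a 1.44-fold rise. DUSP5 transcripts have a GC content of 55.8%, and its Nut 1h value with the GC-content offset was 1.10 (SE 0.08, adjusted p = 5.98e-09).

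DUSP1 and DUSP4, the other nuclear phosphatases of the set, were lower at Nut 1h and passed no test against Nut 0h at Nut 10h. DUSP1 encodes an early-response phosphatase that also acts on JNK and p38 (chromosome 5, 172195099 to 172198198, minus strand), and its promoter window is the one with the cAMP response element and the TATA box. Its normalized counts were 839.7 and 827.3 at Nut 0h, 612.0 and 573.9 at Nut 1h, then 733.8 and 804.9 at Nut 10h. Both Nut 1h libraries lay below all others. DUSP1 fell 1.40-fold at Nut 1h (log2 fold change -0.49, SE 0.10, adjusted p = 0.000838), but with the GC-content offset it was -0.06 (SE 0.09, adjusted p = 0.651). At Nut 10h the value was -0.12 (95% interval -0.33 to 0.10, adjusted p = 0.435), although both libraries were below both vehicle libraries. The annotation places an unnamed gene on the other strand over DUSP1, and since the strand setting of the counting is not given in the sources used here, its reads cannot be told apart from those of DUSP1.

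DUSP4, an inducible nuclear phosphatase of ERK and JNK (chromosome 8, 29190581 to 29208201, minus strand), had 8542 and 8092 normalized counts at Nut 0h, 5992 and 5779 at Nut 1h, then 9614 and 9183 at Nut 10h. The 3 groups did not overlap, with Nut 1h lowest and Nut 10h highest. It fell 1.41-fold at Nut 1h (log2 fold change -0.50, SE 0.09, adjusted p = 0.000216), and remained called lower with the GC-content offset (log2 fold change -0.37, adjusted p = 0.00031). At Nut 10h the log2 fold change was 0.18 (95% interval -0.02 to 0.37, adjusted p = 0.158).

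DUSP6, the cytoplasmic phosphatase specific for ERK widely used as a marker of pathway output, rose at Nut 1h and did not pass the test at Nut 10h (chromosome 12, 89741012 to 89746278, minus strand). The libraries held 4499 and 4694 normalized counts at Nut 0h, 7730.4 and 7287 at Nut 1h, then 5001 and 4997 at Nut 10h. Both Nut 1h libraries stood above the other 4, and the Nut 10h libraries were above the vehicle libraries by a small margin. The rise at Nut 1h was 1.63-fold (log2 fold change 0.71, SE 0.09, adjusted p = 9.57e-06), the largest of the 10 members at this time without the offset. With the GC-content offset the value was 0.45 (SE 0.07, adjusted p = 3.82e-05). At Nut 10h it was 0.12 (95% interval -0.07 to 0.31, adjusted p = 0.34). An unnamed gene on the other strand overlaps DUSP6 too.

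**Figure D2:**
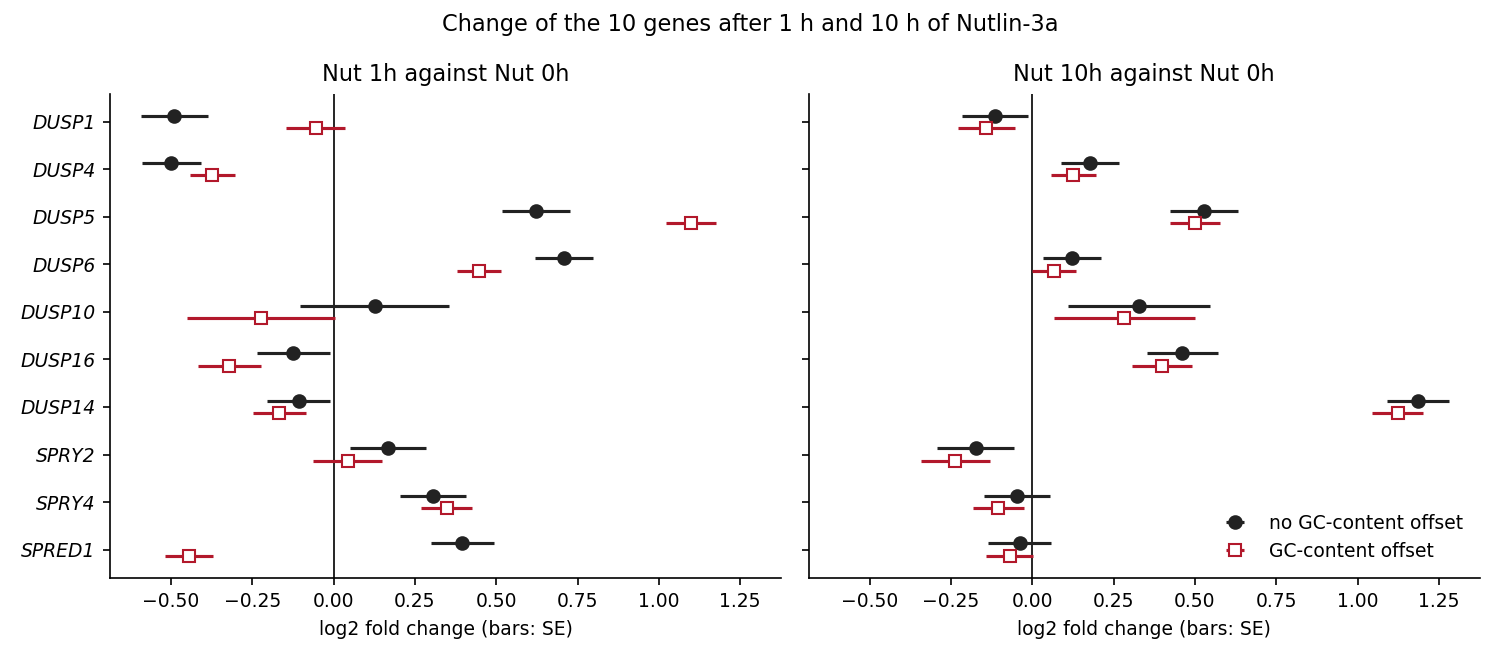
log2 fold change of each gene (horizontal axis) at Nut 1h and Nut 10h against Nut 0h, with bars of 1 SE, without (filled circles) and with (open squares) the GC-content offset. At Nut 1h the offset moves SPRED1 from 0.40 to -0.44, DUSP1 from -0.49 to -0.06 and DUSP5 from 0.62 to 1.10, while at Nut 10h both values of each gene lie close together.

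Of the phosphatases that prefer JNK and p38, DUSP16 rose at Nut 10h and DUSP10 passed no test. DUSP16 (chromosome 12, 12626216 to 12715797, minus strand) encodes a phosphatase of JNK and p38. Its normalized counts were 505.4 and 508.0 at Nut 0h, 444.5 and 487.1 at Nut 1h, then 656.4 and 737.9 at Nut 10h. Both Nut 10h libraries lay above all others. The rise at Nut 10h was 1.38-fold (log2 fold change 0.46, SE 0.11, adjusted p = 0.00587). Its Nut 1h log2 fold change was -0.12 (95% interval -0.37 to 0.12, adjusted p = 0.347), and with the GC-content offset it passed the test at -0.32 (adjusted p = 0.0113). In the annotation, 2 unnamed genes overlap DUSP16 on the other strand.

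DUSP10 (chromosome 1, 221874766 to 221915431, minus strand), the other phosphatase of JNK and p38, was the least abundant member, with 48 to 74 raw counts per library. Its normalized counts were 49.3 and 60.1 at Nut 0h, 59.2 and 60.4 at Nut 1h, then 68.6 and 68.9 at Nut 10h. The Nut 10h libraries lay above the others, and the Nut 1h and Nut 0h libraries overlapped. Its log2 fold changes were 0.13 for Nut 1h (95% interval -0.36 to 0.62, adjusted p = 0.642) and 0.33 for Nut 10h (95% interval -0.14 to 0.80, adjusted p = 0.291). Neither difference passed the test, and the reason was not tested. The sign at Nut 1h turned with the GC-content offset (-0.22, adjusted p = 0.451) and without Nut 0h replicate 1 (-0.02).

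DUSP14 showed the largest difference of the set. It encodes an atypical, small dual-specificity phosphatase without the kinase-binding domain of the other members, known from T cell receptor signalling (chromosome 17, 35849997 to 35873603, plus strand). There were 1375 and 1268 normalized counts at Nut 0h, 1165 and 1290.0 at Nut 1h, then 2999.9 and 3012 at Nut 10h. The Nut 0h and Nut 1h libraries overlapped, and both Nut 10h libraries were far above them, with 3103 and 3237 raw counts against 1025 to 1423. At Nut 10h DUSP14 rose 2.27-fold (log2 fold change 1.19, SE 0.10, 95% interval 0.98 to 1.39, adjusted p = 4.34e-07). Without the GC-content offset it was the only member called with a log2 fold change of at least 1. With the offset DUSP5 was also called above 1, at 1.10 at Nut 1h. Against Nut 0h the Nut 1h value of DUSP14 was -0.11 (95% interval -0.32 to 0.10, adjusted p = 0.344), and -0.17 (adjusted p = 0.102) with the GC-content offset. In its promoter window 81% of the bases were G or C, more than in any other member's window, and it held none of the motifs searched.

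Of the Sprouty genes, SPRY4 was the more abundant and the one that rose at Nut 1h. SPRY4 encodes an inhibitor of receptor signalling to RAS and RAF (chromosome 5, 141689992 to 141706020, minus strand). Its normalized counts were 4261 and 4644 at Nut 0h, 5744 and 5267 at Nut 1h, then 3984 and 4632 at Nut 10h. The Nut 1h libraries were above the other 4, and the Nut 10h libraries overlapped with those of the vehicle, the lowest of these 4 being a Nut 10h library. The rise at Nut 1h was 1.24-fold (log2 fold change 0.31, SE 0.10, adjusted p = 0.016). This call was lost without Nut 0h replicate 1 (0.24, adjusted p = 0.139) and without Nut 1h replicate 1 (0.25, adjusted p = 0.163). At Nut 10h the value was -0.05 (95% interval -0.27 to 0.17, adjusted p = 0.767). SPRY4-AS1 overlaps SPRY4 on the other strand, so their reads may be mixed.

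SPRY2, a Sprouty that also binds the ubiquitin ligase CBL (chromosome 13, 80910111 to 80915261, minus strand), passed the test against Nut 0h at neither time. It had 314.1 and 309.9 normalized counts at Nut 0h, 353.2 and 347.4 at Nut 1h, then 284.2 and 268.9 at Nut 10h. The 3 groups did not overlap, in the order Nut 1h, Nut 0h, Nut 10h. The values were 0.17 for Nut 1h (95% interval -0.09 to 0.42, adjusted p = 0.223; 0.04 with the GC-content offset) and -0.17 for Nut 10h (95% interval -0.43 to 0.08, adjusted p = 0.299).

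SPRED1, which brings the RAS inactivator neurofibromin to the membrane (chromosome 15, 38545037 to 38649450, plus strand), was called in opposite directions at Nut 1h without and with the GC-content offset. Its normalized counts were 1514 and 1527 at Nut 0h, 2091 and 1908 at Nut 1h, then 1411 and 1549 at Nut 10h. Both Nut 1h libraries were above the other 4, and the Nut 10h libraries spanned those of Nut 0h. It was called higher at Nut 1h by 1.32-fold (log2 fold change 0.40, SE 0.10, adjusted p = 0.00239), with 0.33 (adjusted p = 0.0559) without Nut 1h replicate 1. SPRED1 had the lowest GC content of the members, 36.3%, and with the GC-content offset it was called lower (-0.44, SE 0.07, adjusted p = 8.78e-05). At Nut 10h the value was -0.04 (95% interval -0.25 to 0.17, adjusted p = 0.803).

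**Figure D3:**
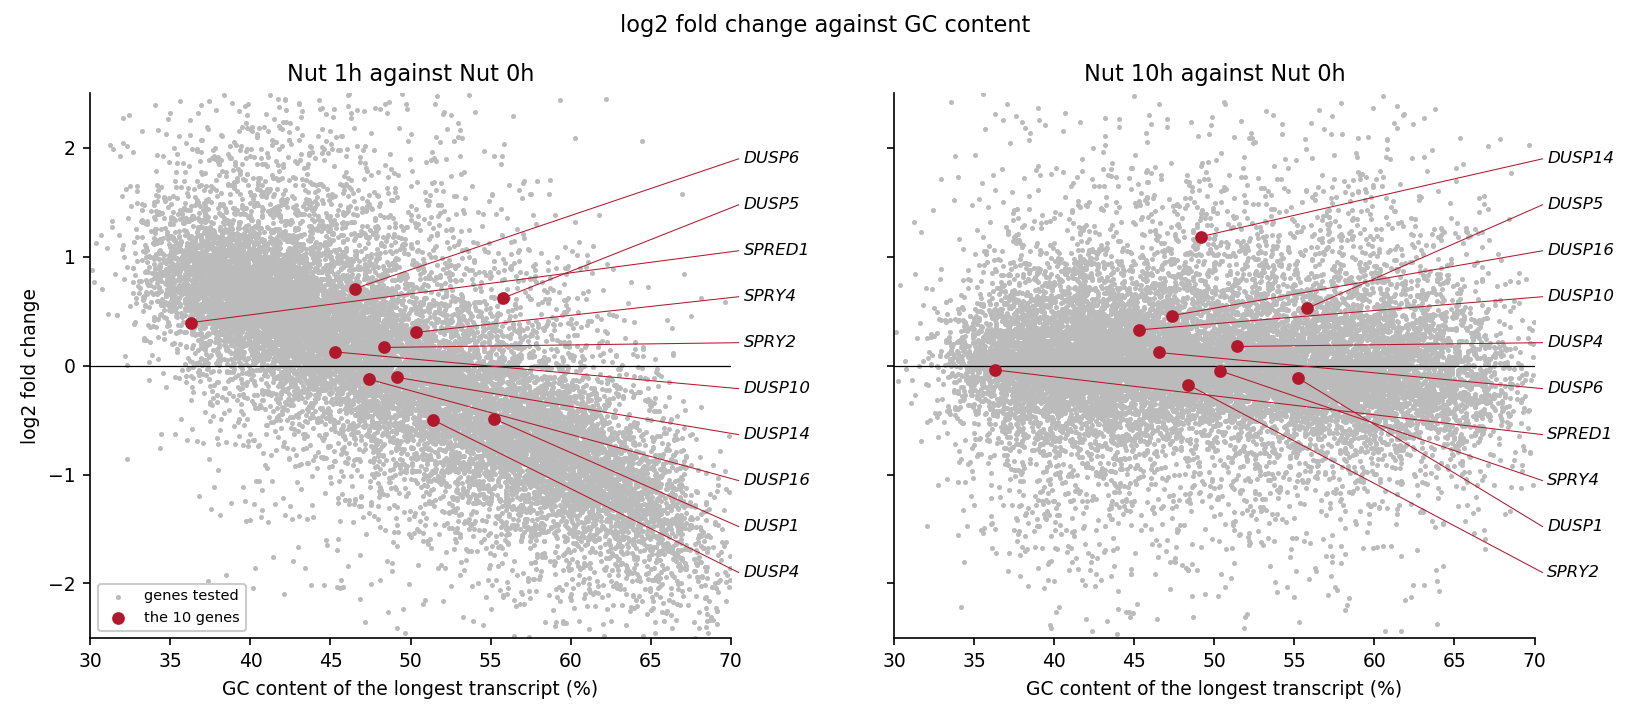
log2 fold change (vertical axis) against the GC content of the longest transcript (horizontal axis, %) for the tested genes (grey) and the 10 genes (red), at Nut 1h and Nut 10h against Nut 0h. At Nut 1h the grey cloud falls from left to right (r = -0.69) with SPRED1 at its left and DUSP5 above its right part, while at Nut 10h it is flat (r = -0.03). The axes leave out 384 genes in the first panel and 222 in the second, none of them among the 10.

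The direct comparison of Nut 10h with Nut 1h tested whether levels differ between these groups. There was no separate vehicle group for each time, so drug effect and time in culture cannot be told apart. DUSP1, DUSP4, DUSP14 and DUSP16 were higher at Nut 10h than at Nut 1h and DUSP6, SPRY2, SPRY4 and SPRED1 were lower, 4 members each way (40%), beside 34.2% of all tested genes higher and 33.7% lower. The largest differences were those of DUSP14 (log2 fold change 1.29, SE 0.10, adjusted p = 6.26e-08), DUSP4 (0.68, SE 0.09, adjusted p = 1.37e-05), DUSP6 (-0.59, SE 0.09, adjusted p = 4.58e-05) and DUSP16 (0.58, SE 0.11, adjusted p = 0.000332). These 4 kept their direction and their call with the GC-content offset, where DUSP6 was at -0.38 (adjusted p = 0.00011). The difference for SPRED1 was -0.43 (adjusted p = 0.00117) and turned to 0.37 (adjusted p = 0.000272) with the offset, and that for DUSP1 was 0.37 (adjusted p = 0.00557) and became -0.09 (adjusted p = 0.447). DUSP5, at -0.09 (adjusted p = 0.434), was called lower only with the offset (-0.60, adjusted p = 2.73e-06).

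Some of these calls were lost when 1 library was left out, which also leaves fewer residual degrees of freedom. The difference for SPRY2 (-0.34, adjusted p = 0.0201) was -0.33 (adjusted p = 0.0937) without Nut 1h replicate 1, -0.35 (0.0715) without Nut 1h replicate 2, -0.34 (0.0561) without Nut 10h replicate 1, -0.25 (0.154) without Nut 10h replicate 2, and -0.31 (0.171) with DESeq2. The one for SPRY4 (-0.35, adjusted p = 0.00683) was -0.30 (adjusted p = 0.0956) without Nut 1h replicate 1 and -0.21 (adjusted p = 0.148) without Nut 10h replicate 1. That for DUSP1 was not called without Nut 1h replicate 2 (0.33, adjusted p = 0.0672).

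Levels can be compared between the members only per length, here as reads per kilobase of annotated exon, scaled to library size (RPKM). At Nut 0h the order ran from DUSP5 at 86.0 ± 8.1 (SD, n = 2 here and below) through DUSP6 at 36.1 ± 1.1, DUSP4 at 34.6 ± 1.3, SPRY4 at 20.6 ± 1.2, DUSP14 at 16.4 ± 0.94 and DUSP1 at 12.5 ± 0.13 to SPRED1 at 5.94 ± 0.035. The lowest levels were those of SPRY2 at 2.94 ± 0.028, DUSP16 at 2.15 ± 0.0080 and DUSP10 at 0.586 ± 0.082. DUSP6 and DUSP4 overlapped, and no other neighbours in this order did. At Nut 1h DUSP6, at 58.9 ± 2.5, no longer overlapped with DUSP4, at 24.5 ± 0.63, which instead overlapped with SPRY4 at 25.4 ± 1.6. At Nut 10h DUSP14 had moved to 37.3 ± 0.11, next to DUSP6 at 39.2 ± 0.023 and DUSP4 at 39.1 ± 1.3, which overlapped each other again. DUSP5 was highest and DUSP10 lowest in each of the 3 groups. No test was made of the order.

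**Figure D4:**
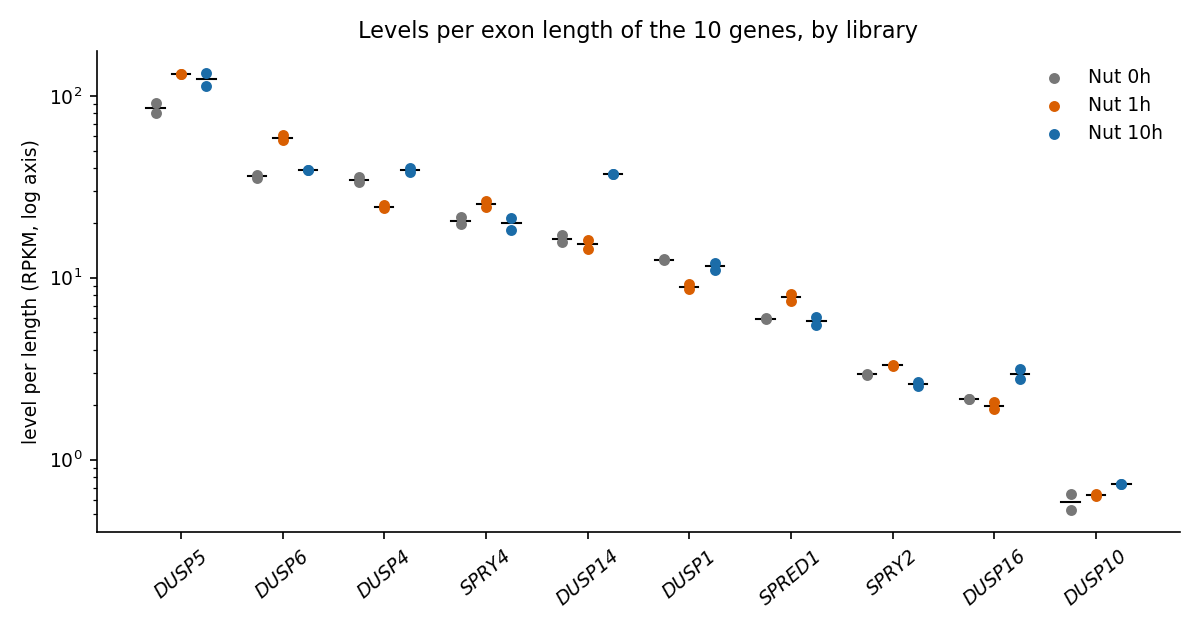
Level per length (RPKM, log axis) of the 10 genes in each library, in the order of their Nut 0h means, with bars at the means of 2 libraries. DUSP5 lies above all others at each time, and DUSP14 moves from 16.4 at Nut 0h to 37.3 at Nut 10h.

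The other genes of the DUSP, SPRY and SPRED families with a known part in MAP kinase control, DUSP2, DUSP7, DUSP8, DUSP9, SPRY1, SPRY3, SPRED2 and SPRED3, were mostly lower at Nut 1h. Of these 8 genes 6 were called lower and none higher at Nut 1h (32.3% and 34.5% of all tested genes), with a median log2 fold change of -0.98. With the GC-content offset, 2 were called lower and 2 higher (24.8% and 20.5% of all genes), and the median was -0.06. SPRY1, the relative of SPRY2 and SPRY4, had 185.5 and 211.3 normalized counts at Nut 0h, 69.2 and 56.6 at Nut 1h, then 295.8 and 395.5 at Nut 10h, with no overlap between the groups. It fell by 1.64 on the log2 scale at Nut 1h (SE 0.20, adjusted p = 6.74e-06; -2.03 with the offset), and rose by 0.80 at Nut 10h (SE 0.16, adjusted p = 0.00183). DUSP2, a nuclear phosphatase best known from immune cells, was lower at Nut 10h (-0.66, adjusted p = 0.00133), and so was DUSP9, a cytoplasmic relative of DUSP6 (-0.53, adjusted p = 0.00724). Their Nut 1h values were -0.66 and -1.62, but the offset turned DUSP2 to 0.50 (adjusted p = 0.000122) and brought DUSP9 to -0.32 (adjusted p = 0.0175). DUSP8, which acts on JNK and p38, was at -1.29 at Nut 1h (0.08 with the offset) and DUSP7, a cytoplasmic ERK phosphatase, at -0.56 (0.18 with the offset), and neither passed the test at Nut 10h (0.11 and -0.13). SPRED2 was at 0.10 and 0.08, SPRY3 at 0.39 and 0.44, and SPRED3 at -1.38 and 0.53 at Nut 1h and Nut 10h. Of these 3 genes, which had at most 48 counts per library apart from SPRED2, only SPRED3 at Nut 1h passed the test (adjusted p = 0.00744), and not with the offset (-0.65, adjusted p = 0.207). The offset took SPRY3 to -0.19 (adjusted p = 0.707) and SPRED2 to 0.19 (adjusted p = 0.0443) at Nut 1h.

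Of 23 genes of the cascade itself, from the EGF receptor family through RAS, RAF and MEK to ERK and its RSK kinases, 7 were called higher and 9 lower at Nut 1h, beside 34.5% and 32.3% of all tested genes, with a median log2 fold change of -0.02. The offset gave 5 higher and 10 lower, beside 20.5% and 24.8%, with a median of -0.14. The largest changes at Nut 1h were those of MAP2K2, which encodes a MEK kinase (-1.51, adjusted p = 6.23e-07; -0.70 with the offset), MAPK3, which encodes an ERK kinase (-1.44, adjusted p = 2.97e-07; -0.51 with the offset), and PTPN11, which encodes a phosphatase needed for RAS activation (1.12, adjusted p = 4.61e-07; 0.54 with the offset). At Nut 10h 3 of the 23 were higher and 1 lower, beside 14.1% and 14.9% of all genes, with a median of -0.05. With the offset 3 were higher and 7 lower, beside 17.0% and 22.4%, with a median of -0.09. The 3 were KSR1, the scaffold of RAF, MEK and ERK, at 1.35 (SE 0.11, adjusted p = 3.06e-07), the adaptor SHC1 at 0.60 (adjusted p = 0.000227) and the ERK-activated kinase RPS6KA1 at 0.40 (adjusted p = 0.0116). KSR1 had 720.9 and 614.2 normalized counts at Nut 0h against 1721 and 1671 at Nut 10h, so that these groups did not overlap.

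Of 14 other inhibitors of RAS and ERK signalling, a list that also holds SPRY1 and SPRED2, 7 were higher and 2 lower at Nut 1h with a median of 0.26, beside 34.5% and 32.3% of all tested genes. With the offset 5 were higher and 2 lower with a median of 0.04, beside 20.5% and 24.8%. NF1, which encodes neurofibromin, the partner of SPRED1, was at 1.15 at Nut 1h (adjusted p = 1.05e-05) and at 0.58 with the offset (adjusted p = 0.000293). RASA2, another RAS inactivator, was at 0.88 (adjusted p = 2.17e-05) but at 0.07 with the offset. At Nut 10h 1 of the 14 was higher, SPRY1, and 1 lower, CNKSR3 (-0.37, adjusted p = 0.0157), beside 14.1% and 14.9% of all genes, and 1 and 2 with the offset, beside 17.0% and 22.4%.

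Of 22 genes known as transcriptional outputs of ERK, 7 were higher and 11 lower at Nut 1h (median -0.22), beside 34.5% and 32.3% of all tested genes, and 11 were higher and 6 lower with the offset (median 0.12), beside 20.5% and 24.8%. At Nut 10h 8 were higher and 6 lower (median 0.14), beside 14.1% and 14.9%, and 9 and 7 with the offset, beside 17.0% and 22.4%. Members of the early-response group differed among themselves. EGR3 rose 9.70-fold at Nut 1h (log2 fold change 3.28, SE 0.17, adjusted p = 1.73e-08), from 74.4 and 73.2 normalized counts at Nut 0h to 722.4 and 712.3. FOS was lower at both times, at -1.33 at Nut 1h (adjusted p = 2.63e-06) and -1.18 at Nut 10h (adjusted p = 2.54e-05). EGR1 was higher at Nut 1h (0.42, adjusted p = 0.0285; 0.86 with the offset) and lower at Nut 10h (-0.90, adjusted p = 0.000711). SPHK1 was at -1.47 at Nut 1h, and at -0.17 with the offset (adjusted p = 0.391). AREG, which encodes the EGF receptor ligand amphiregulin, was lower at Nut 1h (-0.60, adjusted p = 0.000881; -0.95 with the offset) and rose 2.85-fold at Nut 10h (log2 fold change 1.51, SE 0.12, adjusted p = 5.02e-07), with 1267 and 1199 normalized counts at Nut 0h against 4021 and 3002 at Nut 10h.

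**Figure D5:**
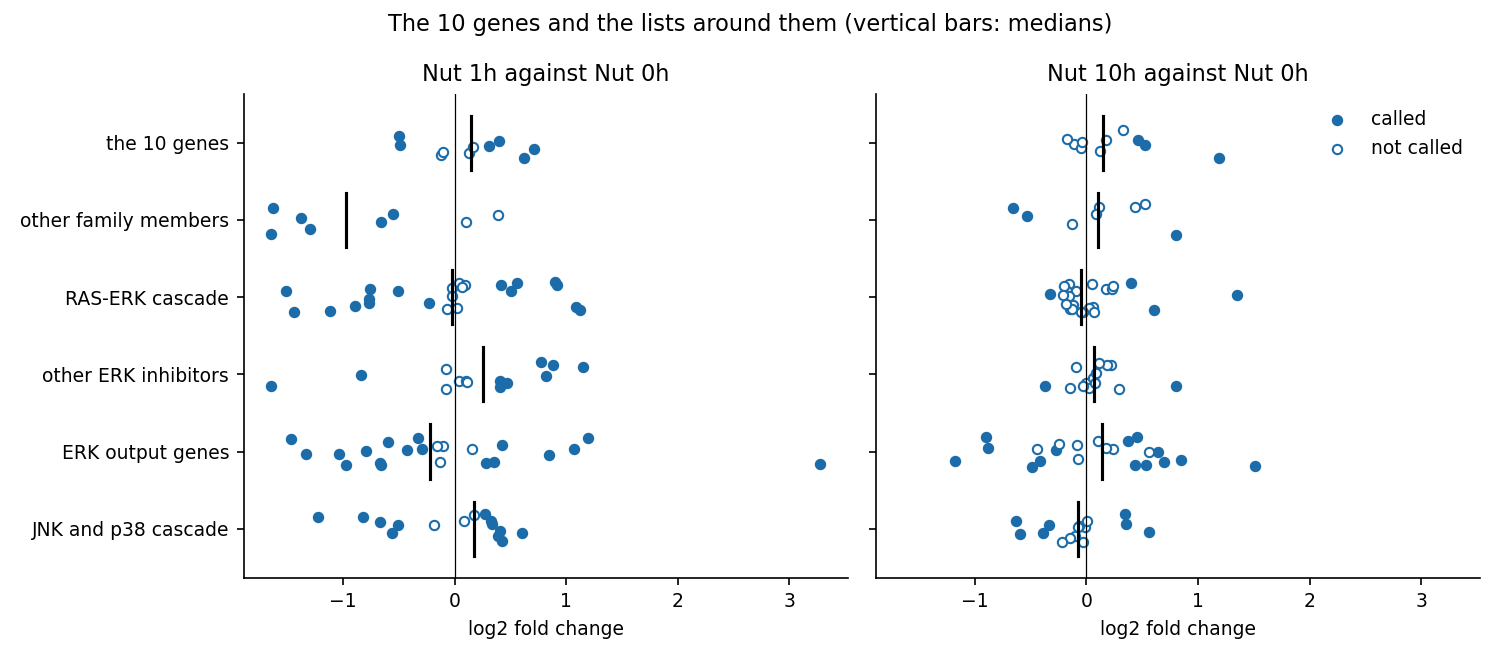
log2 fold change (horizontal axis) of the 10 genes and of 5 lists of genes around them at Nut 1h and Nut 10h against Nut 0h, filled where called and open where not, with vertical bars at the medians. The other family members lie mostly to the left at Nut 1h (median -0.98), and at Nut 10h the medians of all 6 rows lie between -0.08 and 0.15.

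Of 15 tested genes of the JNK and p38 cascade, whose kinases DUSP10 and DUSP16 switch off, 7 were higher and 5 lower at Nut 1h, beside 34.5% and 32.3% of all tested genes, and 5 and 3 with the offset, beside 20.5% and 24.8%. At Nut 10h 3 were higher and 4 lower with a median of -0.08, beside 14.1% and 14.9%, and 3 and 5 with the offset, beside 17.0% and 22.4%. At Nut 10h JUN, the transcription factor that JNK phosphorylates, was at -0.63 (adjusted p = 0.00129) after 0.43 at Nut 1h (adjusted p = 0.00535; 0.93 with the offset), MAPK9, which encodes a JNK kinase, at -0.60 (adjusted p = 0.000299) and MAPK13, which encodes a p38 kinase, at 0.56 (adjusted p = 0.000874). At Nut 1h MAP2K7 was at -1.22 (adjusted p = 3.41e-07; -0.16 with the offset), and MAPK12 and MAPK11, at -0.82 and -0.67, turned to 0.46 and 0.38 with the offset.

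DUSP14 had the widest range of the members over the 3 groups, 1.27 on the log2 scale of counts scaled to library size. Among 11575 tested genes averaging at least 100 normalized counts, the 5 closest to DUSP14 in the pair of log2 fold changes (Nut 1h, Nut 10h against Nut 0h, over the 6 libraries) were BLCAP (-0.13 and 1.14), KRTAP2-3 (-0.10 and 1.24), AC016831.7 (-0.17 and 1.17), CHST6 (-0.09 and 1.11) and LTBP2 (-0.06 and 1.30). Their distance from DUSP14 in this plane was between 0.05 and 0.12 log2 units. The 5 genes were chosen by these values, so no test of the likeness was made.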

How the data were processed

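RNA-seq of 6 HCT116 libraries was analysed from the deposited gene counts. Per the labels and the study's methods, the authors trimmed reads with Trim Galore 0.6.6, aligned them to GRCh37.p13 with STAR 2.7.0f and counted them per gene with featureCounts (Subread 2.0.0). The deposited counts are raw. Whether counting used the strand, how multimapping reads were handled and how RNA was selected is not given in the sources used here. A second deposited table holds the authors' own DESeq2 comparisons (fold changes and p-values), and only its gene symbols were used. Symbols and identifiers were joined to GENCODE v44 lifted to GRCh37, where 55538 genes matched by identifier and 378 by symbol (DUSP14 among them).

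Counts were filtered with filterByExpr, normalized by TMM and tested with edgeR 4.0.16 (R 4.3.3, limma 3.58.1) by the quasi-likelihood test over all 6 libraries with condition alone in the model, which left 3 residual degrees of freedom. The test moderates the spread of each gene toward a trend over all genes, so p-values, SEs and intervals do not rest on each gene's own libraries alone. Benjamini-Hochberg adjustment ran over all 16565 tested genes, with calls at an adjusted p of at most 0.05. Alternatives were a change of normalization, low-count filter, tool (DESeq2 1.42.0, limma-voom), design or threshold, a loess offset on the GC content of the longest transcript (span 0.4), and each library left out in turn. Replicates differed by more than sampling noise (chi-square per degree of freedom between 5.41 and 17.6), and were counted as separate libraries. Normalized counts are scaled by TMM to the mean library size, and RPKM also by the union of annotated exons. Figures were drawn with matplotlib 3.10.9.

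The members and lists were chosen with earlier results of these data known. Named were all members, the further family members, at most 3 called genes with the largest change per list and comparison against Nut 0h averaging at least 100 normalized counts, the 5 genes most like the member of widest range, and CDKN1A and MDM2. The lists of epithelial and other cell type markers were used only to check the cell line.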

Additional observations from a re-analysis of the deposited data

Results flagged for a closer look

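For 8 of the 10 members, the level differed between Nut 10h and Nut 1h in the edgeR quasi-likelihood test (adjusted p of at most 0.05 over all tested genes). With a single vehicle group, drug effect and time in culture cannot be told apart in this comparison. The difference in log2 fold change was 1.29 for DUSP14, 0.68 for DUSP4, 0.58 for DUSP16 and 0.37 for DUSP1, which were higher at Nut 10h. It was -0.59 for DUSP6, -0.43 for SPRED1, -0.35 for SPRY4 and -0.34 for SPRY2, which were lower at Nut 10h. Since 34.2% of all tested genes were higher and 33.7% lower in the same comparison, such a difference was common among all genes. With the GC-content offset SPRED1 was at 0.37 (adjusted p = 0.000272), called in the other direction, and DUSP1 at -0.09 (adjusted p = 0.447), no longer called. The calls of SPRY2, SPRY4 and DUSP1 were lost without single libraries, with adjusted p up to 0.154 for SPRY2 and 0.148 for SPRY4 (both without a Nut 10h library) and 0.0672 for DUSP1 (without Nut 1h replicate 2).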

How the results depend on the processing

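Over the alternatives, 469 of 510 values of the members kept their direction and their side of the threshold, 29 kept the direction and lost the call, 2 gained a call and 10 changed sign. The alternatives that changed only a threshold reused the main fit, so their values could lose a call but could not change direction. Requiring an absolute log2 fold change of at least 1 left 0 members higher and 0 lower at Nut 1h, 1 higher at Nut 10h (DUSP14), and 1 higher and 0 lower between Nut 10h and Nut 1h, where 1665 and 2309, 620 and 515, and 2714 and 2032 of the 16565 tested genes were higher and lower. The GC-content offset turned SPRED1 to -0.44 and DUSP10 to -0.22 at Nut 1h, and DUSP1 to -0.086 and SPRED1 to 0.37 for Nut 10h against Nut 1h. Upper-quartile factors turned SPRED1 at Nut 10h to 0.00764. Leaving out each library in turn gave between 2 and 4 members higher at Nut 1h (2 without Nut 1h replicate 1) and between 2 and 4 lower at Nut 10h against Nut 1h (2 without Nut 1h replicate 1 or Nut 10h replicate 1). Without Nut 1h replicate 1, 4415 of 17308 tested genes were higher at Nut 1h and 4437 lower between the times, and without Nut 10h replicate 1, 4682 of 17503 were lower between the times. Near-zero values changed sign in the same way, with ranges of -0.016 to 0.27 for DUSP10 at Nut 1h, -0.15 to 0.059 for SPRY4 and -0.094 to 0.030 for SPRED1 at Nut 10h, and -0.18 to 0.071 for DUSP5 at Nut 10h against Nut 1h. The cause was not tested.

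Deviations of same-numbered libraries correlated at 0.22 between Nut 0h and Nut 10h. They correlated at -0.15 between Nut 0h and Nut 1h and at -0.14 between Nut 1h and Nut 10h. Whether the replicate numbers of the labels mark pairs is not settled by these values. With the replicate block 4 members were higher and 2 lower at Nut 1h, 3 higher and 0 lower at Nut 10h, and 4 each way between the times. Of 16565 genes, 5664 and 5315, 2371 and 2522, and 5633 and 5556 were then called. With 2 libraries per group, small changes of low genes such as DUSP10 could not be resolved.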
